A study of Bos taurus with 6 samples.

Results

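Markers of the vessel wall were examined in longissimus thoracis, a back muscle, of 6 castrated male Japanese Black cattle, a beef breed. The list held 37 genes, 22 of endothelial cells and 15 of mural cells (smooth muscle cells and pericytes). A member was measured where a probe set of the array carries its symbol and no other, which 31 members had, 19 endothelial and 12 mural. ESAM, SOX17, ICAM2, RGS4, NOTCH3 and ABCC9 had no probe set under this rule. The 31 measured genes are among 9155 genes named in this way, and for each gene the probe set with the highest mean over the 6 arrays was used.

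All steers were 13 to 14 months old at the start and were fattened for 7 months, with feed meant to give a gain of 1.0 kg a day, until 20 to 21 months. The supplemented group of 3 steers was given vitamin A by mouth every week at 296.8 IU per kg body weight. The restricted group of 3 steers was kept without this supplement. Each array held RNA of a different steer. As a check of the labelled tissue, all 8 measured markers of skeletal muscle fibres lay in the highest 10% of probe sets by mean value.

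Endothelial cells line every vessel, and in muscle most of them form the capillaries that run beside the fibres. Mural cells surround this lining. Smooth muscle cells wrap arteries and veins and contract to set blood flow, while pericytes sit on capillaries and share their basement membrane. Vascular endothelial growth factor acts on endothelial cells through the receptors KDR and FLT1, and angiopoietins act through TEK. Retinoic acid, the active form of vitamin A, controls genes through nuclear receptors. In whole muscle RNA, fewer cells of a type and less RNA per cell cannot be told apart.

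Values of the 6 arrays were nearly equal in the deposited table. The median probe set ranged over 0.677 millionths of a deposited log2 unit, and because the processing behind this narrow spread is not given in the sources used here, no difference is read as a fold change. Values are therefore given as deviations from the mean of the same probe set over the 6 arrays, in millionths of a log2 unit, and as differences between the diets in within-group standard deviations (SD) of that probe set. Array medians differed by 8.88 millionths, but the median deviation over all probe sets lay between -0.008 and 0.006 millionths on every array. Supplemented steers were 610.0 ± 9.17 and restricted steers 598.3 ± 11.4 days old when sampled (SD, n = 3 each; p = 0.2 by an exact two-sided permutation test, where 0.1 is the smallest possible).

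No vessel marker passed the test between the diets. Of the 31 members, 0 had a limma adjusted p under 0.05, against 0.00416% of all probe sets. At an unadjusted p under 0.05 there were 2 members, CD34 and AQP1, both lower in restricted steers. This compares with 4.08% of all probe sets in either direction, 2.17% being lower and 1.91% higher. The groups did not overlap in 3 members, RAMP2 above and CD34 and AQP1 below, or 9.68% of members against 8.76% of all probe sets, of which 4.12% lay above and 4.64% below. These shares are near the background and are no result about vessel markers.

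As deposited, a larger share of mural than of endothelial markers had a positive difference, and this contrast between the classes was not tested. In restricted steers 9 of 12 mural and 11 of 19 endothelial markers had the higher mean, where 48.3% of all probe sets did. Differences had a median of 0.899 SDs over mural and 0.538 SDs over endothelial markers, beside -0.0325 SDs over all tested probe sets. The order of the classes was not kept under all alternatives. Without supplemented steer 2, 15 of 19 endothelial and 9 of 12 mural markers were higher, with medians of 0.741 and 0.538 SDs. When all probe sets of a gene were averaged, 13 endothelial and 8 mural markers were, with medians of 0.903 and 0.899 SDs. Taking age into the model gave 11 of 19 endothelial and 11 of 12 mural markers higher, with medians of 0.404 and 0.431 SDs. Shifting each array to a common median, which lowers every difference by 2.22 millionths, left 6 of 12 mural and 6 of 19 endothelial markers higher, against 6.96% of all probe sets. The medians were then -0.189, -0.739 and -0.745 SDs. Quantile normalization left 16 of the 31 members with no difference, as it did 71.3% of all probe sets, 5 mural and 5 endothelial markers being higher and 3 and 2 lower.

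**Figure D1:**
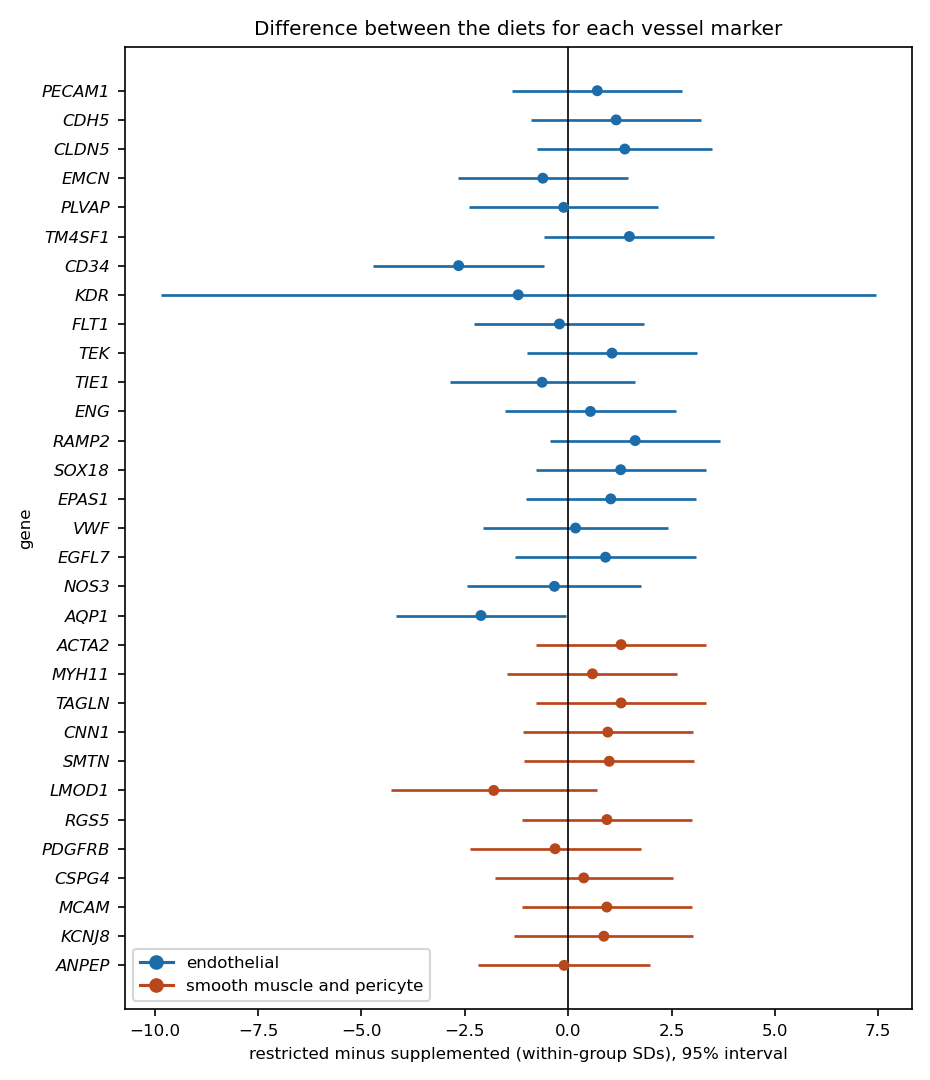
Difference between the diets (restricted minus supplemented, x axis, in within-group SDs) for each of the 31 vessel markers (y axis), with its 95% interval from limma; blue are endothelial and orange mural genes. The intervals of CD34 and AQP1 lie below 0 and the other 29 hold 0, KDR having the widest, from -9.86 to 7.45 SDs.

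The steers did not contribute alike, and many vessel markers had their highest value in the same animal. Restricted steer 1 held the highest value of 16 of the 31 members, 10 of 19 endothelial and 6 of 12 mural, against 16.5% of all probe sets. Its median over the members was 1.15 SDs of the 6 arrays above the mean of each gene, while the other 5 steers had medians from -0.47 to -0.09. Over all probe sets the median of restricted steer 1 was -0.02. After the shift to a common median it was highest in 6 of the 31, against 1.56% of all probe sets, while supplemented steer 3 was highest in 21 of them and in 21583 of the 24016 probe sets. Before the shift, restricted steer 1 had the highest array median, 4.11 millionths from their mean, and supplemented steer 3 the lowest, at -4.76. The shift by its construction lowers the former and raises the latter. Restricted steer 1 was also the youngest, at 589 days, and the part of age in its values was not tested.

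**Figure D2:**
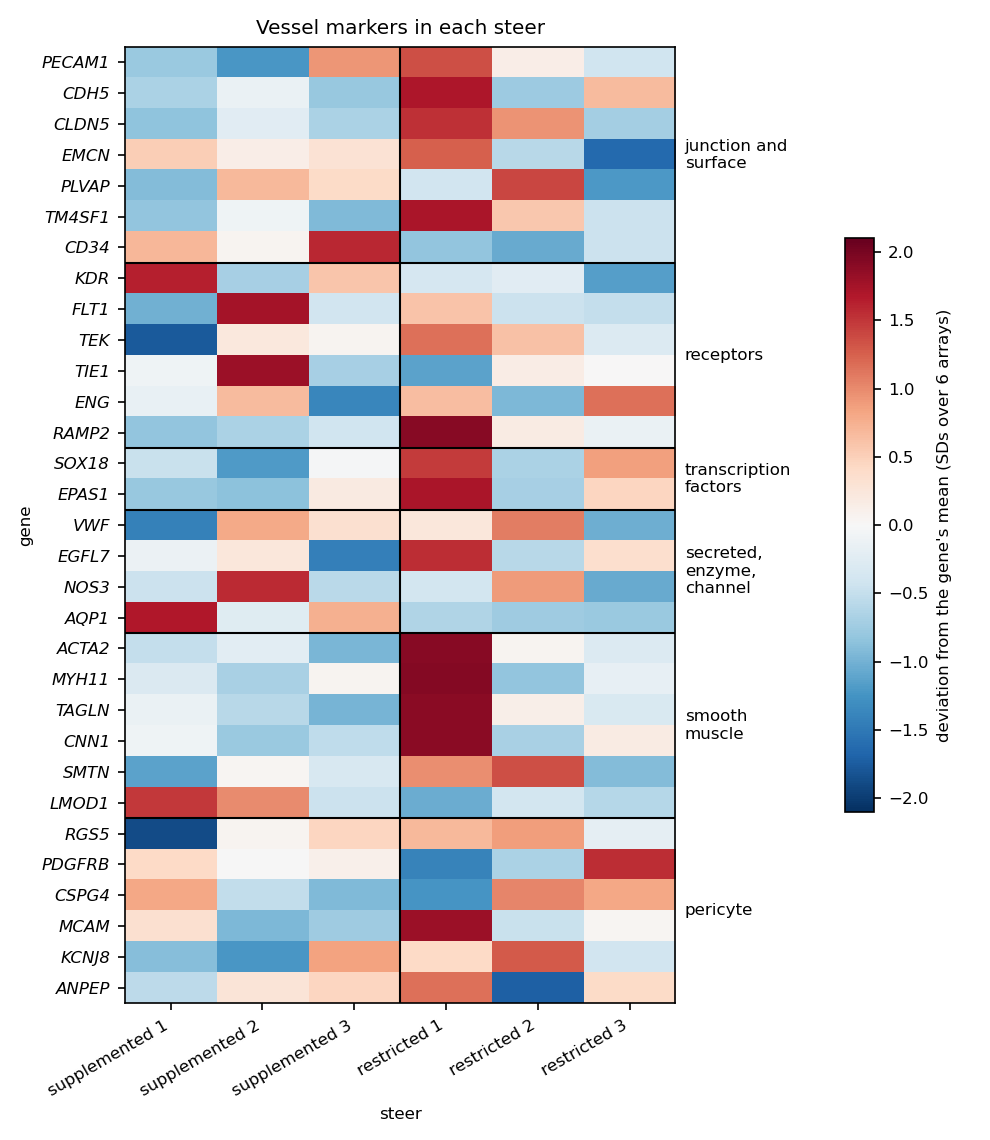
Each of the 31 vessel markers (rows, by role) in each steer (columns), coloured by its deviation from the mean of the gene in SDs over the 6 arrays; the vertical line parts the diets. Restricted steer 1 is red in most rows from PECAM1 to MCAM and holds the highest value of 16 markers. CD34, AQP1, LMOD1, TIE1, PDGFRB and CSPG4 are among the markers that are blue there.

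**Figure D3:**
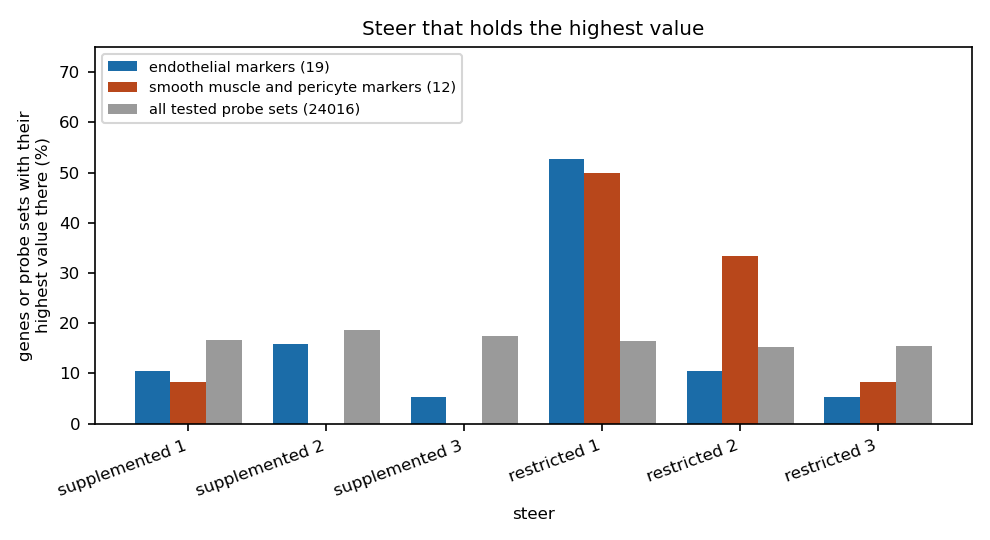
Share of 19 endothelial markers, 12 mural markers and all 24016 tested probe sets (y axis, %) that had their highest deposited value in each steer (x axis). Restricted steer 1 holds 52.6% of endothelial and 50.0% of mural markers but 16.5% of all probe sets.

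Without restricted steer 1, 12 of 19 endothelial and 9 of 12 mural markers had the higher mean in restricted steers. These were not all the same genes, as PLVAP and PDGFRB turned to higher and MYH11 to lower. The median differences were 0.237 SDs for endothelial and 0.558 SDs for mural markers. Markers of other cell types were compared across the same steers. All 5 measured adipocyte markers had the higher mean in restricted steers, where 48.3% of all probe sets did, with a median difference of 0.971 SDs. CFD, named for the smallest p of this list, differed by 6.35 SDs (limma unadjusted p = 7.17e-04, adjusted p = 1.000). It was without overlap, as were 8.76% of all probe sets. Of the 5 adipocyte markers, 4 were highest in restricted steer 1, where their median was 1.20 SDs. In contrast, 0 of 7 fibroblast markers were highest there, and these had their highest median, 1.80 SDs, in supplemented steer 1. The summed level of the adipocyte markers ran from 30.34252 to 30.36313 in supplemented and from 30.35429 to 30.36918 in restricted steers. Lymphatic endothelial markers had a median of 1.15 SDs in restricted steer 1, where 2 of 3 were highest, and a median difference between the diets of -0.176 SDs. Of the 4 pericyte genes RGS5, PDGFRB, CSPG4 and KCNJ8, 0 were highest in that steer, where their median was -0.41 SDs. Over all 6 measured pericyte members, which add MCAM and ANPEP, 2 were highest there and the median was 0.55 SDs. Red blood cell markers were highest in restricted steer 1 in 2 of 6, and no marker of these lists is at 0. The part of the other cell types in the vessel markers was not tested.

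Among junction and surface proteins of the endothelium, 4 of 7 measured genes had the higher mean in restricted steers and 3 the lower. CD34, a sialomucin of endothelial surfaces that also marks progenitor cells of connective tissue, deviated by 0.698, 0.050 and 1.58 millionths in supplemented steers 1, 2 and 3. In restricted steers 1, 2 and 3 it deviated by -0.825, -1.06 and -0.446 millionths. All 3 restricted steers thus lay below all 3 supplemented ones. The difference of -1.55 ± 0.453 millionths (SE, n = 3 each) equals -2.65 SDs, with a limma unadjusted p of 0.0221 and an adjusted p of 1.000. For CD34 the limma unadjusted p was 0.0974 with age as a covariate and 0.210 after the arrays were shifted to a common median. It was 0.0580 without supplemented steer 1, 0.0649 without restricted steer 1 and 0.0707 without restricted steer 2. The p stayed under 0.05 without supplemented steer 2 (0.00991), supplemented steer 3 (0.0265) or restricted steer 3 (0.0406), and with the replicate block (0.0130). With each steer left out in turn, the difference ran from -4.35 to -2.18 SDs. Of the fibroblast markers, 5 of 7 also had the lower mean in restricted steers, with a median difference of -0.275 SDs, and their part in the value of CD34 was not tested.

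PECAM1, the adhesion protein CD31 of endothelial cell contacts, deviated by -15.6, -24.4 and 18.4 millionths in supplemented steers and by 27.0, 2.92 and -8.30 in restricted steers. Supplemented steer 3 lay above restricted steers 2 and 3, so that the groups overlapped, and the difference of 0.704 SDs had a 95% interval from -1.35 to 2.76. CDH5, the cadherin that holds endothelial cells together, deviated by -1.63, -0.349 and -1.96 millionths in supplemented and by 4.23, -1.91 and 1.63 in restricted steers. Here too restricted steer 1 was highest, while restricted steer 2 was almost level with the lowest supplemented steer. The difference of CDH5 was 1.16 SDs (limma unadjusted p = 0.199). With single steers left out it was highest without restricted steer 2, at 3.34 SDs (limma unadjusted p = 0.0220). It was lowest without restricted steer 1, at 0.728 SDs (limma unadjusted p = 0.445).

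CLDN5, the claudin of endothelial tight junctions, differed by 1.37 SDs. Restricted steer 3 lay between supplemented steers 1 and 3, and without it CLDN5 differed by 5.20 SDs. Without restricted steer 1 the difference of CLDN5 was 0.961 SDs, the lowest with single steers left out. TM4SF1, a tetraspanin-like surface protein of endothelial cells, differed by 1.48 SDs in the probe set with the highest mean, where restricted steer 3 at -1.98 millionths lay below supplemented steer 2 at -0.392. Its second probe set deviated by -0.333, -0.797 and -0.438 millionths in supplemented and by 0.988, 0.262 and 0.318 in restricted steers. There all restricted steers were above all supplemented ones, and the difference of 1.05 ± 0.258 millionths or 3.13 SDs had a limma unadjusted p of 0.0123 and an adjusted p of 1.000. EMCN, the endomucin of capillary and venous endothelium, differed by -0.613 SDs, with values from -2.56 in restricted steer 3 to 1.97 millionths in restricted steer 1, so that the restricted group spans all supplemented steers. PLVAP, which forms the diaphragms of endothelial pores, differed by -0.110 SDs.

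The receptors were split, 3 of 6 higher and 3 lower, with a median difference of 0.163 SDs. RAMP2 pairs with the calcitonin receptor-like receptor to bind adrenomedullin, a peptide that widens vessels. It deviated by -12.5, -10.0 and -6.30 millionths in supplemented and by 28.5, 2.53 and -2.19 millionths in restricted steers. All restricted steers were above all supplemented ones, with restricted steer 1 far above the rest. The difference of 19.2 ± 9.18 millionths or 1.62 SDs had a limma unadjusted p of 0.0967, and without restricted steer 1 it was 9.78 ± 2.71 millionths. Because the within-group SD is smaller without that steer, this smaller difference equals 3.06 SDs (limma unadjusted p = 0.0286). With each steer left out in turn, the difference of RAMP2 ran from 1.31 to 3.06 SDs. CALCRL, the partner receptor, deviated by -1.97, -4.87 and -5.68 millionths in supplemented and by 13.4, -3.90 and 3.00 in restricted steers, again highest in restricted steer 1 but with overlap of the groups (1.32 SDs, limma unadjusted p = 0.154).

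KDR, the main signalling receptor for vascular endothelial growth factor, stayed between -0.010 and 0.014 millionths in all 6 steers. This range of 0.024 millionths was wider than that of only 2.0% of probe sets, and the deposited values hold 9 decimals. Its 2 probe sets went in opposite directions, -1.21 and 1.01 SDs, the second having the lower mean and the wider range. FLT1, a receptor that binds the same growth factor, had a highest value of 1.58 millionths in supplemented steer 2 and a lowest of -0.908 in supplemented steer 1, with all restricted steers between them. TEK, the angiopoietin receptor, was lowest in supplemented steer 1 at -9.14 millionths and highest in restricted steer 1 at 5.99 (1.06 SDs). TIE1, its relative, differed by -0.631 SDs and ENG, a co-receptor for ligands of the transforming growth factor beta family, by 0.538 SDs.

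Both measured transcription factors were highest in restricted steer 1. EPAS1, the oxygen-regulated factor HIF-2 alpha, had the widest range of all members, 1420 millionths, which is more than 99.3% of probe sets. Its deviations were -436, -476 and 105 millionths in supplemented and 944, -385 and 248 millionths in restricted steers. Restricted steer 2 lay among the supplemented steers, and the difference of 1.03 SDs (limma unadjusted p = 0.246) was 0.541 SDs without restricted steer 1. Its second probe set gave 1.39 SDs. SOX18, a factor of endothelial and lymphatic differentiation, differed by 1.27 SDs, from -1.58 millionths in supplemented steer 2 to 1.96 in restricted steer 1.

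Secreted proteins, the enzyme and the channel of endothelial cells were split, 2 of 4 in each direction. AQP1, the water channel of capillary endothelium, which red blood cells carry too, deviated by 14.9, -2.23 and 6.58 millionths in supplemented and by -5.56, -6.66 and -6.99 in restricted steers. The restricted steers lay close together and below all supplemented ones, which were spread widely (SD 0.746 against 8.55 millionths, n = 3 each). The difference of -12.8 ± 4.68 millionths or -2.11 SDs had a limma unadjusted p of 0.0460 and an adjusted p of 1.000. Its unadjusted p was 0.00638 without supplemented steer 2, between 0.0584 and 0.113 without any other steer, 0.0181 after the shift to a common median, where AQP1 was the 1 member under 0.05, 0.0690 with the replicate block and 0.0583 when age was a covariate. Its other 2 probe sets differed by -1.13 and -0.0370 SDs. Red blood cell markers had the higher mean in restricted steers in 4 of 6 (median 0.322 SDs), and their part in AQP1 was not tested.

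VWF, the clotting protein stored in endothelial granules, deviated by -0.093, 0.052 and 0.022 millionths in supplemented and by 0.016, 0.071 and -0.067 in restricted steers. The groups covered nearly the same range, and the difference of 0.178 SDs turned to -0.523 SDs without supplemented steer 1. EGFL7, a secreted factor of vessel tubes, differed by 0.903 SDs and was highest in restricted steer 1, while NOS3, the endothelial nitric oxide synthase, differed by -0.332 SDs and was highest in supplemented steer 2.

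**Figure D4:**
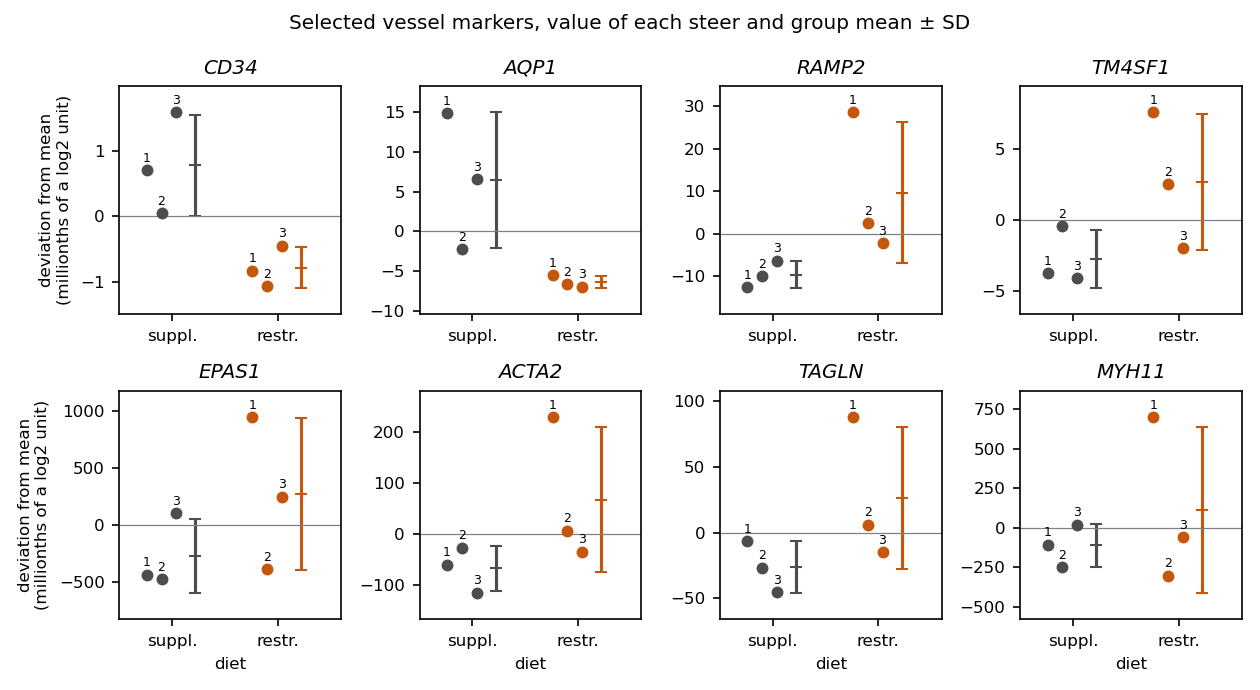
Deviation of each steer from the mean of the gene (y axis, millionths of a deposited log2 unit, scaled per gene) in supplemented and restricted steers (x axis) for 8 vessel markers; points are steers, numbered, and bars are the group mean ± SD (n = 3). CD34 and AQP1 separate the diets downwards and RAMP2 upwards, while EPAS1, ACTA2, TAGLN and MYH11 have 1 high point, restricted steer 1.

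Of the 6 smooth muscle contractile genes, 4 were highest in restricted steer 1 and 5 had the higher mean in restricted steers. ACTA2, the actin of smooth muscle, deviated by -60.3, -26.7 and -115 millionths in supplemented and by 229, 6.84 and -34.6 in restricted steers. Restricted steer 3 lay between the supplemented steers, and the difference of 134 ± 81.1 millionths or 1.28 SDs had a limma unadjusted p of 0.165. TAGLN, an actin-binding protein of smooth muscle, deviated by -6.45, -26.8 and -45.7 millionths in supplemented and by 88.0, 6.11 and -15.2 in restricted steers. It followed ACTA2 in which steers were high and low among the restricted ones, with a difference of 1.28 SDs (limma unadjusted p = 0.163). Without restricted steer 1 the differences were 53.3 ± 33.9 millionths in ACTA2 and 21.7 ± 15.4 in TAGLN (SE). In units of the within-group SD, which is smaller without that steer, they were 1.33 and 1.19.

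MYH11, the myosin heavy chain of smooth muscle, rested on that animal more heavily. It deviated by -107, -248 and 19.5 millionths in supplemented and by 698, -302 and -60.7 in restricted steers. Restricted steer 1 was the highest and restricted steer 2 the lowest of all 6, and the difference of 0.587 SDs turned to -0.472 SDs without restricted steer 1. CNN1, the calponin that binds actin in smooth muscle, was likewise highest in restricted steer 1, at 1.60 millionths (0.957 SDs, and 0.450 SDs without that steer). SMTN, smoothelin of contractile smooth muscle, had its highest values in restricted steers 2 and 1, at 4.47 and 3.26 millionths, and restricted steer 3 at -3.02 near the lowest (0.993 SDs). LMOD1, which starts actin filaments in smooth muscle, went the other way, with supplemented steers at 0.091, 0.061 and -0.028 millionths and restricted steers from -0.064 to -0.024 (-1.80 SDs, limma unadjusted p = 0.119). Its whole range was 0.155 millionths.

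Pericyte markers were less alike, with 4 of 6 higher, a median difference of 0.620 SDs and 2 of 6 highest in restricted steer 1. RGS5, a regulator of G protein signalling in pericytes, deviated by -92.7, 3.08 and 22.3 millionths in supplemented and by 33.9, 43.1 and -9.65 in restricted steers. The low value of supplemented steer 1 set most of its range, and the difference of 0.937 SDs had a limma unadjusted p of 0.285. Quantile normalization turned the difference of RGS5 to -0.472 SDs. MCAM, the adhesion molecule CD146 of pericytes and endothelium, reached 109 millionths in restricted steer 1 and was between -57.8 and 20.3 in all others (0.934 SDs, and 0.395 SDs without that steer).

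PDGFRB, the receptor through which platelet-derived growth factor B recruits pericytes, deviated by 0.112, -0.002 and 0.030 millionths in supplemented and by -0.375, -0.175 and 0.412 in restricted steers. The restricted steers lay on both sides of the supplemented ones, restricted steer 1 being the lowest, and the difference was -0.317 SDs. It was -3.40 SDs without restricted steer 3 (limma unadjusted p = 0.0259) and 0.294 SDs without restricted steer 1. CSPG4, the proteoglycan NG2 of pericytes, differed by 0.377 SDs and was lowest in restricted steer 1, and its 3 probe sets did not go in the same direction. KCNJ8, a pore subunit of ATP-sensitive potassium channels, differed by 0.864 SDs. ANPEP, the aminopeptidase CD13, differed by -0.0986 SDs, with the lowest and the highest value both in the restricted group.

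In 11 members the array holds more than 1 probe set, and in 8 of them all probe sets had a difference of the same sign. The others were CSPG4, KDR and PLVAP. Of the 31 members 22 lay above the median level of the probe sets, 13 endothelial and 9 mural, of which 9 and 7 had the higher mean in restricted steers. The table gives no detection calls, so whether probe sets with small ranges, such as those of KDR, VWF, TIE1 and LMOD1, were above background is not known.

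Other genes of vessel growth and tone were counted in the same fit, and 0 passed the adjusted threshold in each list. Genes named from these lists, here and in the next paragraph, were picked for the smallest p in their list. Of all probe sets, 4.08% had a limma unadjusted p under 0.05, 8.76% had no overlap of the groups and 48.3% were higher in restricted steers. Single genes below are therefore no result about these lists. Among growth factor ligands and their partners, 6 of 14 measured genes were higher and 8 lower. NRP2, a co-receptor for vascular endothelial growth factors, deviated by 0.102, 0.088 and 0.157 millionths in supplemented and by -0.226, 0.030 and -0.149 in restricted steers, without overlap (-2.39 SDs, limma unadjusted p = 0.0365). Of 14 listed Notch, arterial and venous genes only 5 were measured. All 5 were higher, 3 of them having their highest value in restricted steer 1, and the median difference was 0.563 SDs. Only 3 of 11 listed genes of smooth muscle transcription were measured. All 3 were lower, TBX2, the serum response factor SRF and KLF4 (-1.12, -0.597 and -0.289 SDs). The range of TBX2 was 0.075 millionths. Endothelial transcription factors had 3 of 8 higher and 5 lower, FLI1 at 1.40 SDs being highest in restricted steer 1.

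Of the basement membrane genes 7 of 8 had the higher mean in restricted steers. LAMB1, a laminin chain, deviated by -0.617, -8.67 and -2.15 millionths in supplemented and by 1.64, 5.07 and 4.73 in restricted steers, which lay above all supplemented ones (2.31 SDs, limma unadjusted p = 0.0349). Here restricted steer 1 was the lowest of its group. NID2, which links laminin to collagen IV, differed by 1.59 SDs and was highest in restricted steer 1. Among vasoactive peptides and their receptors 4 of 10 were higher and 6 lower. GUCY1A1, a subunit of the nitric oxide receptor in smooth muscle and pericytes, deviated by -0.491, 0.011 and -0.244 millionths in supplemented and by 0.347, 0.174 and 0.202 in restricted steers, without overlap (2.55 SDs, limma unadjusted p = 0.0263). GUCY1B1, the other subunit, differed by 1.96 SDs, with restricted steer 3 at -1.39 millionths below supplemented steer 3 at -1.02 (unadjusted p = 0.0571).

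**Figure D5:**
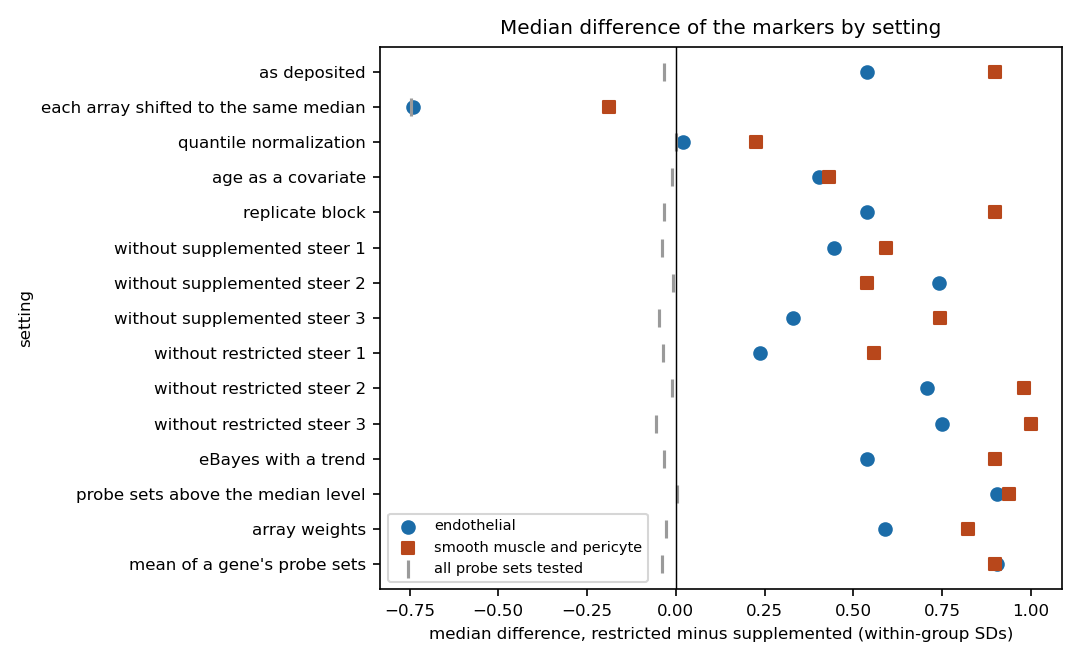
Median difference between the diets (x axis, within-group SDs) over endothelial markers, mural markers and all probe sets tested, for the deposited values and each alternative (y axis). After the shift of each array to a common median all 3 are below 0, at -0.739, -0.189 and -0.745 SDs. The median over all probe sets was -0.0325 SDs as deposited. Without restricted steer 1 the medians of the markers are 0.237 and 0.558 SDs.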

How the data were processed

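The authors deposited 1 table of processed array values, taken as log2 values because they run from 4.81 to 12.67. Per the labels' protocols, total RNA was amplified and labelled with biotin for an Affymetrix 3 prime array. How they were background-corrected, normalized and summarized, and the logarithm base, is not given in the sources used here. Without 112 control probe sets, 24016 probe sets entered a linear model in limma 3.58.1 under R 4.3.3 (eBayes without trend; restricted minus supplemented; values multiplied by 1e+09), with Benjamini-Hochberg adjustment over all of them and a threshold of 0.05. The prior had 0.483 and the residuals 4 degrees of freedom. The script was tested on simulated data with differences far larger, in within-group SDs, than those of any member. That test cannot tell whether differences of the size seen in the members would be found. Symbols came from the platform annotation, and all 31 matched a current ARS-UCD2.0 record by gene identifier. No coordinates or sequences are given.

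Every measured member is named. The value in each steer is given for members at an unadjusted p under 0.05 or without overlap of the groups and for 12 anchor genes, of which NOTCH3 had no probe set. Of each further list, up to 4 genes of smallest p could be named. Members and lists were chosen with earlier results of these data known, and members are described by counts and medians. Alternatives were 2 normalizations, age, replicate number as a block, each steer left out, an eBayes trend, a level filter, array weights and averaging all probe sets of a gene. The deviations of same-numbered steers correlated by 0.039, 0.014 and 0.017, and those of differently numbered steers by -0.022 to 0.006. With 3 steers a group, these values cannot decide whether the numbers mark pairs. The main model used no pairing.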

Additional observations from a re-analysis of the deposited data

How the results depend on the processing

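Arrays give no counts, and 3 steers a group limit the precision. Under every alternative run, 0 members passed the adjusted threshold. After the arrays were shifted to a common median, 1 member, AQP1, had an unadjusted p under 0.05, 1 had no overlap of the groups, and 6 endothelial markers were higher. VWF (-0.736 SDs), ENG (-0.739), CLDN5 (-0.697), EGFL7 (-0.741), SOX18 (-0.255), CNN1 (-0.582), CSPG4 (-0.731) and KCNJ8 (-0.705) then turned to lower, as the shift by its construction lowers each difference by 2.22 millionths. Quantile normalization gave 35 probe sets past the adjusted threshold over the whole table, 0 members at an unadjusted p under 0.05, 0 without overlap, and 5 endothelial and 5 mural markers higher. It turned FLT1 (0.816), EGFL7 (-0.577), SOX18 (-0.577), CNN1 (-0.577) and RGS5 (-0.472), and gave no value for members made equal; the cause of the other changes was not tested. With age as a covariate, 0 probe sets passed, 0 members had an unadjusted p under 0.05, and PDGFRB (0.471) and ANPEP (0.137) turned. ANPEP also turned with array weights (0.00986), and KDR (0.968), PLVAP (2.34) and CSPG4 (-0.808) when all probe sets of a gene were averaged.

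With the replicate block, 0 probe sets passed the adjusted threshold in place of 1, and 1 member, CD34, had an unadjusted p under 0.05; no other count of the members changed. Leaving out each steer in turn gave 1 to 2 probe sets past the adjusted threshold and 10 to 15 endothelial and 9 to 10 mural markers higher. It gave 0 to 5 members at an unadjusted p under 0.05 (0 without supplemented steer 1 and 5 without restricted steer 3). Between 4 and 11 members had no overlap (more by construction with fewer steers). For the alternatives, the shares of all probe sets under that p or without overlap are not given here. These member counts are therefore no result about vessel markers. Members that turned had the ranges -0.741 to 1.34 in ANPEP, -0.00332 to 1.52 in CSPG4, -3.15 to 0.0200 in EMCN, -0.788 to 1.04 in FLT1, -0.472 to 1.31 in MYH11, -0.888 to 0.403 in NOS3, -3.40 to 0.294 in PDGFRB, -1.12 to 0.442 in PLVAP, -1.23 to 0.110 in TIE1 and -0.523 to 0.750 in VWF. The eBayes trend and the level filter turned no member they gave a value for.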
